A study of Rattus norvegicus and Mus musculus with 24 samples.

Results

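Lymphocytes are scarce in a healthy kidney, and their genes therefore sit at the low end of a kidney RNA profile. The 54 genes described here mark T cells, NK cells, B cells and plasma cells, and were taken by name from the mouse and rat expression tables of a study of Ctns, which encodes cystinosin, the transporter that exports cystine from lysosomes. Of the 54 symbols, 52 were in the mouse table of 17376 symbols and 45 in the rat table of 14931 symbols, and 44 were in both. CD8B was followed in the rat only and KLRK1 was not analysed here. CTLA4, IL7R, PRF1, KLRD1, EOMES, RUNX3, JCHAIN and CD69 were followed in the mouse only. Both tables carry human-style symbols, which are kept here.

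The mice were Ctns knockout (KO) animals on a C57BL/6 background and their wild-type (WT) littermates, 4 of each. The rats were Ctns KO animals on a Sprague-Dawley background and WT littermates, 8 of each, numbered 17 to 32 with WT rats odd and KO rats even. No drug is named in the labels of any animal, and the age of the sequenced animals is not stated for them. The study describes its mice as female and its rat experiments as using both sexes, without giving the sex of each sequenced rat. The KO lines are not restricted to a cell type. The labels name kidney cortex as tissue and proximal tubule as cell type, and the protocol in the labels speaks of microdissected tubules, whereas the methods speak of cortex. The rat libraries separated by number range, 17 to 24 and 25 to 32, each with 4 WT and 4 KO rats, a split that no label explains, so KO and WT rats were compared within each range and as the mean of both ranges. Libraries held 19309371 to 44449845 reads in mice and 24684097 to 40629873 in rats. CTNS itself was lower in KO mice, with 15.2 to 16.4 CPM (reads scaled to library size) against 39.8 to 49.4 in WT mice (log2 change -1.43 ± 0.07 SE, limma adjusted p = 7.99e-05). In rats CTNS spanned 16.8 to 22.2 CPM in KO and 19.2 to 27.8 in WT animals (mean of both ranges -0.22 ± 0.07, edgeR adjusted p = 0.0152), with -0.12 ± 0.10 in rats 17 to 24 (adjusted p = 0.601). The KO and WT rats overlapped in CTNS, so the gene checks the rat labels only weakly. Markers of other nephron parts were present in every library: 8 collecting duct and distal nephron genes summed to 8199 to 10571 CPM in mice, and 6 of them to 3147 to 5193 CPM in rats.

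T cells recognise antigen through a receptor whose signal is carried into the cell by the CD3 chains and the zeta chain CD247, with CD4 or CD8 as coreceptor and the kinases LCK and ZAP70 as the first enzymes. NK cells and cytotoxic T cells kill with granzymes and perforin, and B cells signal through CD79A and CD79B and mature into plasma cells that secrete antibody. In the kidney these cells sit mainly in the interstitium around the tubules, and they increase in number in many forms of tubulointerstitial disease.

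Promoter sequence is shown for 4 members, because the change of CD28, LCK and IL2RA differed between the rat number ranges and GZMA, like LCK, held 3 of the 4 motifs searched. RefSeq promoters on rat build GRCr8 were matched for 40 of the 54 symbols, 42 start sites in all. The windows below are the 250 bases before the annotated start, 5′ to 3′ on the gene's strand, with capitals marking 4 motifs searched on both strands: TGTGGT, bound by RUNX factors, GGAAGT, bound by ETS factors, CAGGTG, an E box, and the octamer ATGCAAAT of B cell promoters. The Cd28 window is chr9:69660066-69660315 on the plus strand. Lck has 2 annotated starts, at chr5:147183650 and chr5:147201267, the windows being chr5:147183651-147183900 and chr5:147201268-147201517, both on the minus strand. The Il2ra window is chr17:71808476-71808725 and the Gzma window chr2:46485697-46485946, also on the minus strand.
Cd28: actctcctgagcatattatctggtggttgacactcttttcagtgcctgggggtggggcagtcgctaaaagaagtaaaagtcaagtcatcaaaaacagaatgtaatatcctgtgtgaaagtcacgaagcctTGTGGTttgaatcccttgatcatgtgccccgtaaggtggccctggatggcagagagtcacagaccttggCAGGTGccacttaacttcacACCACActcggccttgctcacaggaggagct
Lck, inner start: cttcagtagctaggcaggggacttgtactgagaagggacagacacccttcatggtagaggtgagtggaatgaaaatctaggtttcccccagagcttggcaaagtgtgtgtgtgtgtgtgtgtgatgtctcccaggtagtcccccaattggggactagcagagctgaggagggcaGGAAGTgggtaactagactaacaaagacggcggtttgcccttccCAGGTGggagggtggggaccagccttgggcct
Lck, outer start: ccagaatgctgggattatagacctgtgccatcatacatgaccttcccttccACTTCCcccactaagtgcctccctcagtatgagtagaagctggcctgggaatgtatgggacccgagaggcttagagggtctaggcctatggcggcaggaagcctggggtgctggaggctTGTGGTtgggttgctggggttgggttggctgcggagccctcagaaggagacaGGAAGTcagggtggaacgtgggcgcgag
Il2ra: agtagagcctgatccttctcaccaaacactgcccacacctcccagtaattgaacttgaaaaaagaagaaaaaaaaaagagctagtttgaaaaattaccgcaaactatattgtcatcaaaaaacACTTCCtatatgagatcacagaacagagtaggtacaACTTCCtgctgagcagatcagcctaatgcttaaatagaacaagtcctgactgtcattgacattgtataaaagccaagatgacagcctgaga
Gzma: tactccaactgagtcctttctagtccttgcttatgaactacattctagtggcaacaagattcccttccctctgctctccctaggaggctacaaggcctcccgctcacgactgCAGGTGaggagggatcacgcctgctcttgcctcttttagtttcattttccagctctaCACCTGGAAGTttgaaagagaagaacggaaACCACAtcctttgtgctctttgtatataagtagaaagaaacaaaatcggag
Cd28 had RUNX matches 120 and, on the opposite strand, 31 bases before its start and an E box at 51 bases. The inner Lck start had an ETS match and an E box 76 and 32 bases before it, counted from the first base of the match. The outer start had a RUNX match at 80 bases and ETS matches at 199 and 28 bases. Il2ra had 2 ETS matches on the opposite strand. In Gzma an opposite-strand E box, 81 bases before the start, shared its last base with an ETS match at 76 bases, beside a further E box and an opposite-strand RUNX match. Across the members' 42 windows the RUNX letters were found in 35.7%, against 14.5% of all 33469 rat promoter windows, the ETS letters in 33.3% against 19.2%, the E box in 35.7% against 15.9% and the octamer in 2.38% against 1.56%. These shares describe letters in a window and no binding was measured.

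In KO rats the lymphocyte genes were mostly higher than in WT rats. Of the 45 members in the rat table, 33 reached the minimum of 5 reads per rat on average and were tested (edgeR quasi-likelihood test, adjusted over 12054 symbols). In the mean of both ranges 29 members were higher in KO rats, 1 was lower and 3 did not pass the threshold of 0.05. Over all symbols tested, 21.1% were called higher and 22.3% lower, 43.4% in either direction. The median log2 change was 0.82 over the tested members and -0.02 over all symbols. FOXP3 reached the read minimum only through the KO rats, and without it 28 of 32 were higher, as were 28 of 32 in rats 25 to 32. In KO rats 17 to 24, 13 members were higher and 0 lower, with all 33 estimates positive (background 4.94% higher and 1.86% lower), and in KO rats 25 to 32, 29 were higher and 1 lower (background 23.4% and 25.9%). All 13 of the first range were among those higher in the second. The median change was 0.65 in the first range and 1.05 in the second. The 13 calls in rats 17 to 24 depended on single animals: 6 remained without WT rat 21 or without WT rat 23, 7 without KO rat 22, and 8 without KO rat 20 or KO rat 24. RNA was measured from bulk tissue, so more cells of a type and more RNA per cell cannot be told apart. The summed level of the 45 members was 92.6 to 119 CPM in WT and 136 to 143 CPM in KO rats 17 to 24, and 114 to 124 CPM in WT and 185 to 215 CPM in KO rats 25 to 32. The KO and WT sums did not overlap in either range. CD4, ITGAL, GATA3 and IL2RG, which other cells also carry, made up much of these sums. Their means in KO rats 25 to 32 were 39.8, 24.5, 20.2 and 15.9 CPM. The 7 genes of the T cell receptor complex and T cell surface summed to 4.98 to 7.17 CPM in WT and 9.32 to 11.9 CPM in KO rats 17 to 24. In rats 25 to 32 they summed to 7.79 to 10.1 and 20.8 to 28.1 CPM.

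**Figure D1:**
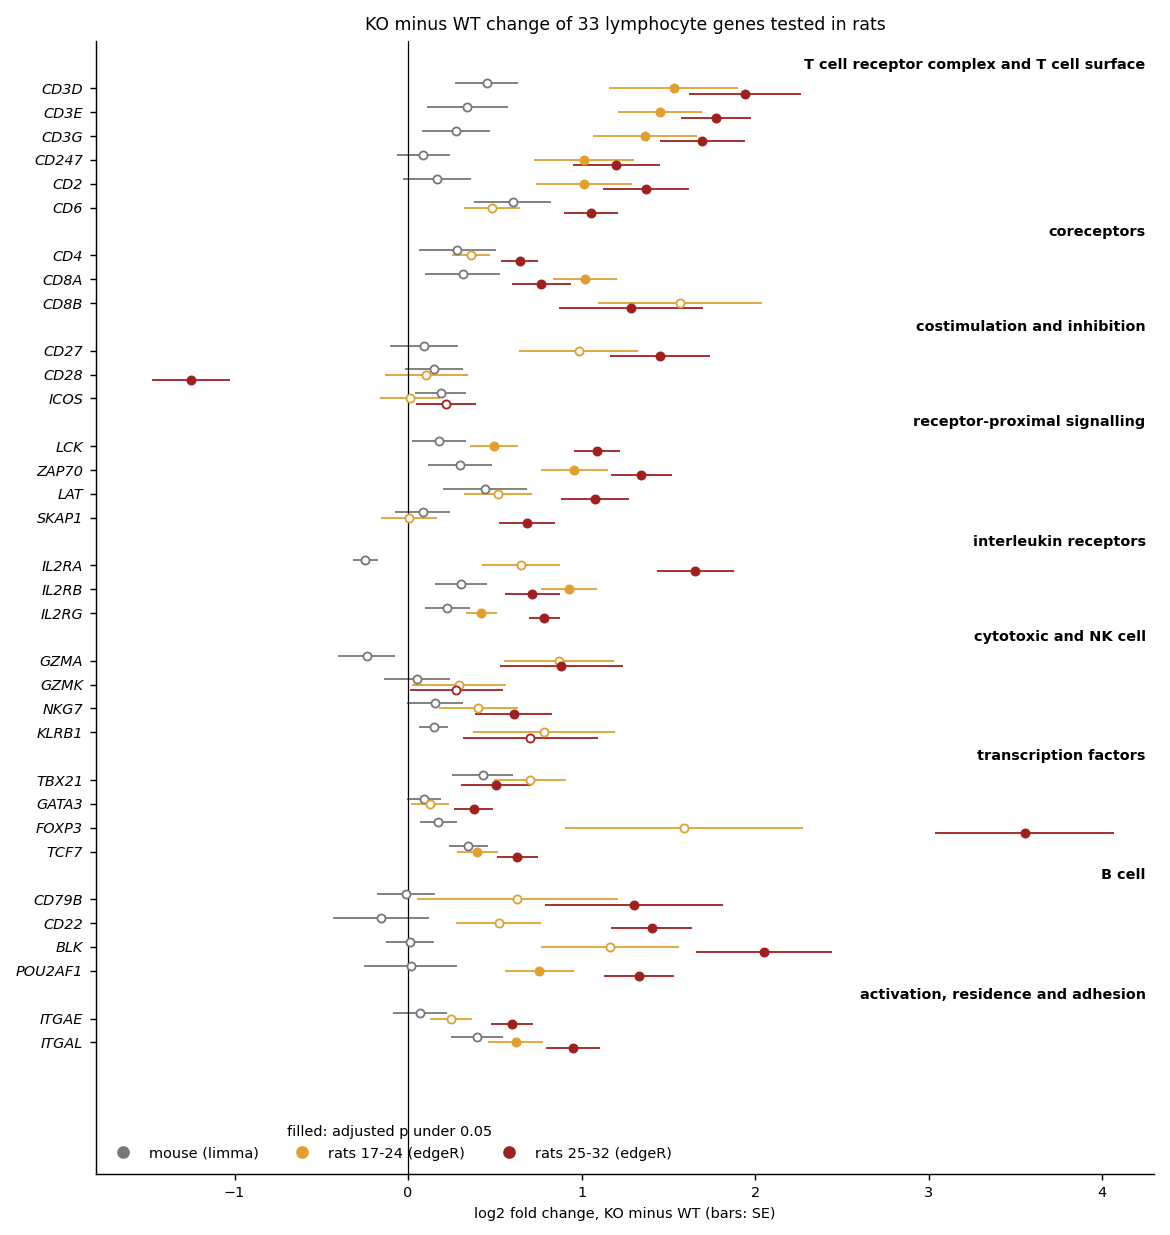
Log2 fold change of KO over WT animals (x axis, bars are SE) for the 33 members tested in rats, grouped by role, in mice (grey), rats 17 to 24 (yellow) and rats 25 to 32 (red), with filled points past an adjusted p of 0.05. In rats 25 to 32, 29 members lie to the right of 0 with filled points (FOXP3 among them, which reached the read minimum through KO rats alone) and CD28 alone lies to the left, whereas no mouse point is filled.

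The genes of the T cell receptor complex and T cell surface had the highest median change of the role groups tested in rats. All 6 tested members (CD3D, CD3E, CD3G, CD247, CD2 and CD6) were higher in the mean of both ranges and in rats 25 to 32, and 5 of the 6 in rats 17 to 24, the exception being CD6 (adjusted p = 0.0839). The median log2 change was 1.36. CD3E, a chain of the CD3 complex that every mature T cell carries, measured 0.56, 0.35, 0.49 and 0.69 CPM in WT rats 17 to 24 and 1.21, 1.93, 1.41 and 1.20 CPM in the KO rats of that range. It measured 1.01, 1.35, 1.51 and 1.19 CPM in WT rats 25 to 32 and 4.10, 5.46, 3.55 and 4.24 CPM in their KO counterparts. KO and WT rats did not overlap in either range (background of symbols higher without overlap 7.81% and 19.9%), although WT rats 25 to 32 overlapped KO rats 17 to 24. The change was 1.61 ± 0.16 (SE) on the log2 scale, with an edgeR adjusted p of 3.91e-07, from 12 to 161 reads per rat.

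CD3D, CD3G and CD247 showed the same order of groups. CD3D was 0.12 to 0.48 CPM in WT and 0.46 to 1.12 CPM in KO rats 17 to 24, which overlapped, and 0.36 to 0.63 against 1.41 to 2.51 CPM in rats 25 to 32, which did not. CD3G was 0.25 to 0.53 CPM in WT and 0.86, 0.81, 1.58 and 0.80 CPM in KO rats 17 to 24, and 0.85 to 1.13 against 2.27 to 4.17 CPM in rats 25 to 32. CD247, the zeta chain that couples the receptor to its kinases, was 0.52 to 0.60 CPM in WT and 0.64 to 1.58 CPM in KO rats 17 to 24, and 0.72 to 1.21 against 1.68 to 2.85 CPM in rats 25 to 32. Their log2 changes over both ranges were 1.74 ± 0.25, 1.53 ± 0.19 and 1.11 ± 0.19 (edgeR adjusted p = 2.24e-05, 6.56e-06 and 0.00016). The adhesion molecule CD2 changed by 1.19 ± 0.19 and the T cell surface receptor CD6 by 0.77 ± 0.11. CD5 stayed under the read minimum, with 54 reads in all in 8 KO rats and 13 in 8 WT rats.

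**Figure D2:**
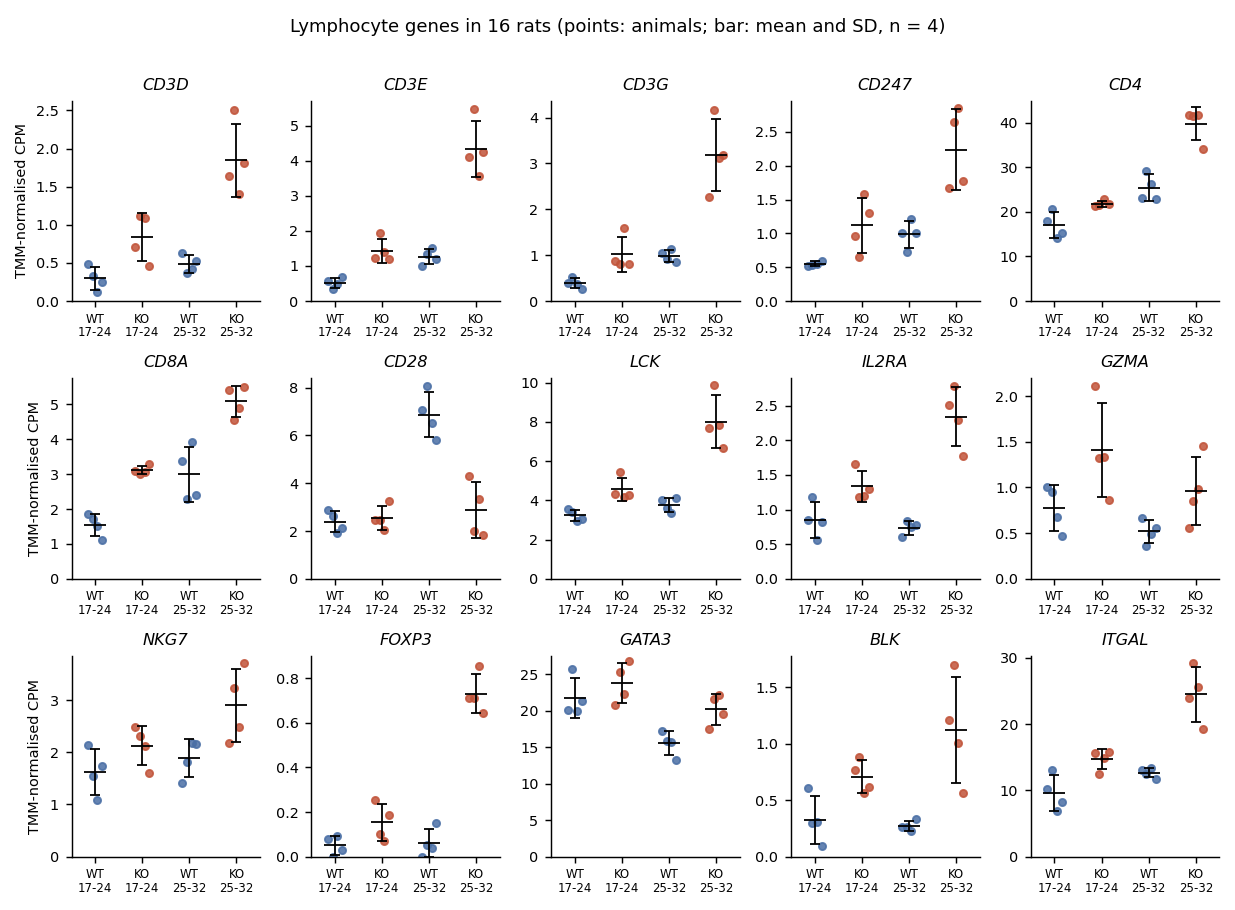
TMM-normalised CPM (y axis) of 15 members in each of 16 rats by genotype and number range, with points for animals and bars for mean and SD (n = 4). KO rats 25 to 32 stand highest for most genes, CD3E reaching 3.55 to 5.46 CPM, while CD28 is highest in WT rats 25 to 32 at 5.83 to 8.08 CPM.

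The 3 coreceptor genes rose in KO rats in the mean of both ranges. CD8A was 1.10 to 1.85 CPM in WT and 3.02 to 3.30 CPM in KO rats 17 to 24, and 3.39, 2.28, 3.92 and 2.41 CPM in WT against 5.40, 4.55, 4.90 and 5.49 CPM in KO rats 25 to 32. The groups did not overlap within a range, and the change was 1.02 ± 0.18 in rats 17 to 24 (adjusted p = 0.00192) and 0.77 ± 0.17 in rats 25 to 32 (adjusted p = 0.00131). A difference between the ranges was not shown for CD8A (-0.25 ± 0.25, adjusted p = 0.516). CD8B, its partner chain, changed by 1.43 ± 0.31 in the mean of both ranges (adjusted p = 0.00144). CD4, the helper T cell coreceptor that rat macrophages also carry, was at 14.0 to 20.6 CPM in WT and 21.3 to 22.8 CPM in KO rats 17 to 24. In rats 25 to 32 it was at 23 to 29.2 CPM in WT and 41.6, 41.5, 41.7 and 34.1 CPM in KO animals. Its change was 0.36 ± 0.11 in the first range (adjusted p = 0.0537) and 0.64 ± 0.11 in the second (adjusted p = 9.83e-05).

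The 3 costimulatory genes tested went different ways, with CD27 higher, CD28 lower and ICOS short of the threshold in the mean of both ranges. CD28, the main costimulatory receptor of T cells, was the member that fell. It measured 2.86, 2.63, 1.91 and 2.14 CPM in WT and 2.46, 2.44, 2.04 and 3.24 CPM in KO rats 17 to 24, which overlapped throughout. In rats 25 to 32 it measured 7.08, 8.08, 6.52 and 5.83 CPM in WT and 4.31, 2.0, 3.34 and 1.82 CPM in KO animals, with no overlap (background of symbols lower without overlap 19.9%). KO rats of both ranges thus lay near WT rats 17 to 24, and WT rats 25 to 32 stood apart (12.3% of symbols were higher in these than in WT rats 17 to 24 without overlap). CD28 was singled out after its values were seen. The log2 change was 0.11 ± 0.24 in rats 17 to 24 (adjusted p = 0.893) and -1.25 ± 0.22 in rats 25 to 32 (adjusted p = 0.000215), a difference of -1.36 ± 0.33 between ranges (adjusted p = 0.0124). With genotype alone in the model, CD28 did not pass (adjusted p = 0.0707). In WT rats CD28 averaged 4.63 CPM and ICOS 3.72 CPM, above the 0.89 CPM of CD3E. Which cells the CD28 and ICOS reads came from was not tested. CD27, a receptor of the TNF family on T and memory B cells, rose by 1.22 ± 0.22, while ICOS changed by 0.11 ± 0.12 (adjusted p = 0.475). The inhibitory receptor gene PDCD1 had 0 reads in all 16 rats.

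Receptor-proximal signalling genes were higher in KO rats, 4 of 4 tested, with 2 of 4 called in rats 17 to 24. LCK, the kinase that phosphorylates the CD3 chains, measured 3.54, 3.42, 2.95 and 3.05 CPM in WT and 4.31, 5.46, 4.19 and 4.29 CPM in KO rats 17 to 24, and 4.02, 3.6, 3.36 and 4.12 CPM in WT and 7.67, 9.88, 7.84 and 6.66 CPM in KO rats 25 to 32. Every KO rat was above every WT rat across the 16 animals, which held for 6 of the 33 members tested (background of symbols higher in all 8 KO rats 3.83%). The other 5 were IL2RA, IL2RB, IL2RG, POU2AF1 and TCF7. The change was 0.49 ± 0.14 in the first range and 1.09 ± 0.13 in the second, a difference of 0.59 ± 0.19 (adjusted p = 0.0464). ZAP70, which docks on the phosphorylated chains, changed by 1.15 ± 0.13, the adaptor LAT by 0.80 ± 0.14 and the adaptor SKAP1 by 0.34 ± 0.11. The SKAP1 change was 0.004 ± 0.16 in rats 17 to 24 (edgeR adjusted p = 0.994). It was 0.68 ± 0.16 in rats 25 to 32 (adjusted p = 0.00205), and the difference between ranges missed the threshold (adjusted p = 0.0536). THEMIS and TRAT1 stayed under the read minimum with 14 and 60 reads over all rats.

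The 3 chains of the IL-2 receptor were higher in KO rats. IL2RA, the alpha chain of activated and regulatory T cells, was 0.85, 1.18, 0.55 and 0.82 CPM in WT and 1.66, 1.19, 1.20 and 1.30 CPM in KO rats 17 to 24, and 0.60, 0.83, 0.75 and 0.78 CPM in WT and 2.51, 2.78, 2.30 and 1.78 CPM in KO rats 25 to 32. WT levels overlapped between the ranges and the KO levels did not. Whatever their WT levels, 21.5% of symbols were higher in KO rats 25 to 32 than in KO rats 17 to 24 without overlap. IL2RA was likewise chosen after its values were seen. The change was 0.65 ± 0.23 (adjusted p = 0.1) and 1.65 ± 0.22 (adjusted p = 1.11e-05), a difference of 1.0 ± 0.32 (adjusted p = 0.0422). IL2RB, the beta chain, changed by 0.93 ± 0.16 and 0.72 ± 0.16 in the 2 ranges, and IL2RG, the common gamma chain that most leukocytes carry, by 0.42 ± 0.09 and 0.78 ± 0.09.

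Of the cytotoxic genes 3 of 4 tested were higher in KO rats. GZMA, NKG7 and KLRB1 passed in the mean of both ranges and GZMK did not (0.29 ± 0.19, adjusted p = 0.24). The KLRB1 call (adjusted p = 0.0411) held in 7 of 16 fits that left out 1 rat, with an adjusted p of up to 0.132 without KO rat 24, and DESeq2 and limma-voom called 2 of the 4. In rats 17 to 24 alone 0 of the 4 passed in edgeR, with 1 under an unadjusted p of 0.05, and 0 in DESeq2 and limma-voom. GZMA, a granzyme of killer cells, was 1.01, 0.94, 0.68 and 0.47 CPM in WT and 2.11, 1.32, 1.34 and 0.86 CPM in KO rats 17 to 24, and 0.67, 0.36, 0.49 and 0.56 CPM in WT and 0.56, 0.85, 0.98 and 1.45 CPM in KO rats 25 to 32. The groups overlapped in both ranges, with a change of 0.88 ± 0.24 (adjusted p = 0.00637). NKG7, a granule membrane protein, was 1.08 to 2.13 CPM in WT and 1.60 to 2.49 CPM in KO rats 17 to 24, and 1.42 to 2.19 against 2.17 to 3.71 CPM in rats 25 to 32 (0.51 ± 0.16, adjusted p = 0.0153). Values of KLRB1 and GZMB were not whole reads in most animals of both species, so reads shared with related genes are possible there, and GZMB had 9 reads over all rats.

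Among transcription factors, TBX21, GATA3 and TCF7 were higher in KO rats in the mean of both ranges. FOXP3 is given as a description without its rat test, since it reached the read minimum through the KO rats alone. FOXP3, the factor that defines regulatory T cells, had 0 to 3 reads in WT and 2 to 8 reads in KO rats 17 to 24, and 0 to 4 reads in WT and 16 to 28 reads in KO rats 25 to 32. In CPM the second range was 0, 0.052, 0.038 and 0.149 in WT and 0.714, 0.713, 0.858 and 0.646 in KO rats, which did not overlap. GATA3, which kidney tubule cells of the distal nephron also express, was at 13.2 to 17.2 CPM in WT and 17.5 to 22.1 CPM in KO rats 25 to 32, and at 19.9 to 25.7 and 20.7 to 26.8 CPM in rats 17 to 24. WT rats 25 to 32 were thus below WT rats 17 to 24 without overlap, as were 9.75% of symbols, and the call over both ranges (0.25 ± 0.08, adjusted p = 0.0137) was lost with genotype alone in the model (adjusted p = 0.151). TCF7 changed by 0.51 ± 0.08 and TBX21, the factor of interferon-producing T cells and NK cells, by 0.60 ± 0.15.

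Of the B cell genes, 3 of 4 tested were higher over both ranges and 4 of 4 in KO rats 25 to 32 (background 21.1% and 23.4% higher). BLK, a kinase of B cells, was 0.60, 0.29, 0.31 and 0.09 CPM in WT and 0.77, 0.88, 0.56 and 0.62 CPM in KO rats 17 to 24, and 0.26, 0.26, 0.23 and 0.33 CPM in WT and 1.21, 1.70, 1.01 and 0.57 CPM in KO rats 25 to 32 (1.61 ± 0.28, adjusted p = 0.000175). CD22, an inhibitory receptor of B cells, changed by 0.96 ± 0.17 and POU2AF1, a B cell coactivator, by 1.04 ± 0.14. CD79B, a chain of the B cell receptor, missed the threshold over both ranges (0.97 ± 0.39, adjusted p = 0.0528). Its call in rats 25 to 32 (edgeR adjusted p = 0.044) held in 8 of 16 fits that left out 1 rat. In that range limma-voom called 3 of the 4. The classical B cell markers were hardly read. MS4A1, which encodes CD20, had 20 reads over all WT and 53 over all KO rats, CD79A had 30 and 48, PAX5 had 10 and 21, TNFRSF13C had 6 and 6, and CR2 had 23 and 17. The plasma cell gene MZB1 had 33 and 42 reads, and LEF1, a factor of naive T cells, had 20 and 31. These genes were not tested, and no direction is read from their totals. ITGAL, the alpha chain of the integrin LFA-1 on all leukocytes, was 6.89 to 13.0 CPM in WT and 12.5 to 15.8 CPM in KO rats 17 to 24. In rats 25 to 32 it was 11.8 to 13.3 against 19.2 to 29.2 CPM (0.79 ± 0.11 over both ranges, edgeR adjusted p = 2.37e-05). ITGAE, the integrin of tissue-resident T cells, changed by 0.42 ± 0.09. Its level in WT rats was 4.84 to 7.23 CPM, above the 0.35 to 1.51 CPM of CD3E. POU2AF1 was at 0.98 to 1.98 CPM in WT rats, above the 0.06 to 0.24 CPM of CD79A. Which cells the ITGAE and POU2AF1 reads came from was not tested.

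WT rats of the 2 ranges differed in these genes about as often as in all genes. In WT rats 25 to 32 against WT rats 17 to 24, 6 of the 33 members were higher (CD28, CD3G, CD3E, CD8A, CD2 and CD4) and GATA3 was lower, 7 of 33 against a background of 11.5% higher and 9.24% lower. CD28 differed by 1.54 ± 0.23 on the log2 scale (adjusted p = 0.000132), CD3G by 1.32 ± 0.30 and CD3E by 1.27 ± 0.25. The KO changes of CD3G and CD3E were 1.53 and 1.61. Among KO rats 18 members were higher in rats 25 to 32 than in rats 17 to 24 and 0 were lower (background 23.8% higher and 22.5% lower). The KO change itself differed between the ranges for 3 of the 33 members, LCK and IL2RA with a greater and CD28 with a lower change in rats 25 to 32, against 14.4% of all symbols (6.89% greater and 7.51% lower). The CD28 call held in all 16 fits that left out 1 rat and in limma-voom, while those of LCK and IL2RA held in 6 of the 16 and were lost in limma-voom (adjusted p = 0.0523 and 0.0583). The estimate was greater in rats 25 to 32 for 26 of the 33. In simulated data, the test between ranges recovered 23% of genes at the members' read level that differed 2-fold.

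In mice 1 of the lymphocyte genes passed the threshold. All 52 members of the mouse table were tested with limma on log2 of the scaled value plus 0.01, a scale that understates the change of low genes. That gene was KLRD1, higher in KO mice, where 4.03% of all 17376 symbols were called higher and 0.984% lower. The estimate was positive for 41 of the 52, with a median of 0.15 against 0.002 over all symbols, and 10 had an unadjusted p under 0.05. The reads behind these genes were few, since 25 of the 52 averaged under 20 reads per mouse and 48 under 100. CD3E for example changed by 0.40 ± 0.35 in edgeR on reads, an estimate close to its own error. A change of this size could not be told from no change in these mice. In simulated data, the mouse test recovered 8.5% of genes at the members' read level that were changed 2-fold. KLRD1, the NK cell receptor chain CD94, was named after its values were seen. It measured 0.55, 0.37, 0.34 and 0.37 CPM in WT and 0.75, 0.69, 0.75 and 0.58 CPM in KO mice, from 7 to 25 reads and without overlap (background of symbols higher without overlap 7.01%), with a change of 0.41 ± 0.09 (adjusted p = 0.0392). Its call was lost in 6 of the 8 fits that left out 1 mouse and in edgeR on the recovered reads (0.74 ± 0.29, adjusted p = 0.15), and edgeR and DESeq2 on reads called 0 members, with 7 and 4 of the 47 members tested under an unadjusted p of 0.05.

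**Figure D3:**
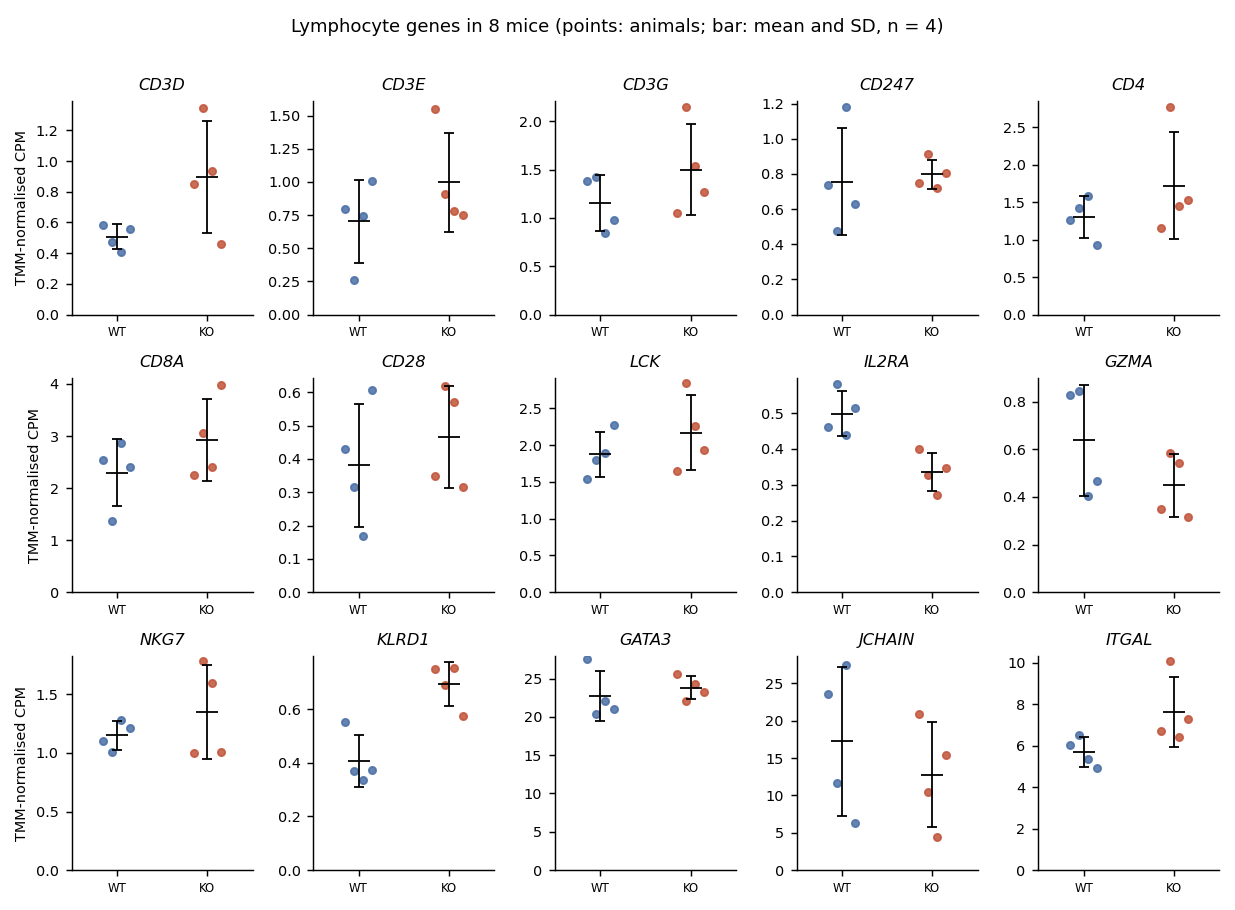
TMM-normalised CPM (y axis) of 15 members in each of 8 mice by genotype, with points for animals and bars for mean and SD (n = 4). WT and KO mice overlap in these genes except KLRD1, where KO mice lie higher at 0.58 to 0.75 CPM, and IL2RA, where they lie lower at 0.27 to 0.40 CPM.

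The T cell genes of the mouse overlapped between genotypes, except IL2RA and TCF7. TCF7, a factor of naive and memory T cells, was 1.80 to 2.30 CPM in WT and 2.35 to 3.13 CPM in KO mice without passing the threshold (0.35 ± 0.11, adjusted p = 0.139). CD3E was 0.80, 0.26, 0.74 and 1.0 CPM in WT and 1.55, 0.91, 0.78 and 0.75 CPM in KO mice (0.34 ± 0.23, adjusted p = 0.515). CD3D was 0.58, 0.48, 0.40 and 0.56 CPM in WT and 0.85, 1.35, 0.93 and 0.46 CPM in KO mice (0.45 ± 0.18, adjusted p = 0.232). CD3G was 0.84 to 1.43 CPM in WT and 1.05 to 2.15 CPM in KO mice, and CD247 was 0.48 to 1.18 and 0.72 to 0.91 CPM. The coreceptors were alike in their spread, with CD4 at 0.94 to 1.59 CPM in WT and 1.15 to 2.77 CPM in KO mice and CD8A at 1.37 to 2.87 and 2.25 to 3.98 CPM. LCK was 1.53 to 2.27 CPM in WT and 1.65 to 2.84 CPM in KO mice (0.18 ± 0.16, adjusted p = 0.659). IL2RA was 0.46, 0.58, 0.44 and 0.51 CPM in WT and 0.40, 0.33, 0.27 and 0.35 CPM in KO mice, lower in each KO mouse than in any WT mouse (background of symbols lower without overlap 4.95%) but short of the threshold (-0.25 ± 0.07, adjusted p = 0.0901). CD69, an early activation marker, came nearest to passing after KLRD1 (0.59 ± 0.15, adjusted p = 0.0723). FOXP3 had 2 to 7 reads in WT and 3 to 10 reads in KO mice.

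The members summed to 73.7 to 104 CPM in WT and 79.9 to 104 CPM in KO mice. GATA3 and JCHAIN made up much of these sums, with means of 22.7 and 17.3 CPM in WT and 23.8 and 12.8 CPM in KO mice. The 7 genes of the T cell receptor complex and T cell surface summed to 4.44 to 5.96 CPM in WT and 5.82 to 10.5 CPM in KO mice, which overlapped. Cytotoxic, B cell and plasma cell genes of the mouse overlapped as well, apart from KLRD1 and the B cell factor PAX5, which had 2 to 7 reads in WT and 0 to 3 reads in KO mice (adjusted p = 0.177). GZMA was 0.40 to 0.85 CPM in WT and 0.32 to 0.58 CPM in KO mice (-0.24 ± 0.16, adjusted p = 0.528), and NKG7 was 1.0 to 1.28 and 1.0 to 1.79 CPM. GATA3 was 20.3 to 27.5 CPM in WT and 22.1 to 25.6 CPM in KO mice (0.09 ± 0.10, adjusted p = 0.723). MS4A1 was 0.21 to 0.61 and 0.33 to 0.80 CPM, CD79A was 0.58 to 1.15 and 0.36 to 1.07 CPM, and BLK was 0.11 to 0.47 and 0.21 to 0.43 CPM. Of the 9 B cell genes 6 had a negative estimate. JCHAIN, the joining chain of secreted IgA and IgM, varied widely between mice of 1 group, at 23.6, 11.6, 27.5 and 6.28 CPM in WT and 20.9, 10.4, 4.40 and 15.4 CPM in KO mice (-0.38 ± 0.56, adjusted p = 0.832). ITGAL was 4.91 to 6.5 CPM in WT and 6.41 to 10.1 CPM in KO mice (0.40 ± 0.15, adjusted p = 0.204).

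The change of each gene in rats was set against its change in mice with limma over the 14264 symbols of both tables, on log2 of the scaled value plus 0.01. Of the 44 shared members 12 had a greater change in rats, where 6.18% of all symbols did (10.7% differed in either direction). IL2RA differed by 1.10 ± 0.15 (adjusted p = 7.65e-05), CD3E by 0.88 ± 0.23 (adjusted p = 0.0195), BLK by 0.82 ± 0.23, GZMA by 0.79 ± 0.25, CD3G by 0.78 ± 0.23, LCK by 0.57 ± 0.16 and FOXP3 by 0.54 ± 0.13. The other 5 were CD22, POU2AF1, CD2, ZAP70 and IL2RG. No read minimum was set here, and FOXP3 entered with 0 to 4 reads in WT rats. Its species call is given as a description only, and was lost with limma-voom on reads (adjusted p = 0.0594). The count was 4 with limma-voom on reads, IL2RA, CD3E and CD3G among them, 20 with a pseudocount of 1, 4 without KO mouse 6, 5 without WT mouse 1 and 6 without WT mouse 4, KO mouse 3 or KO mouse 8. For CD4 (0.26 ± 0.20), CD8A (0.49 ± 0.22), CD3D (0.57 ± 0.24) and ITGAL (0.41 ± 0.20) a species difference was not shown. Species cannot be told apart in this comparison from strain background, KO line, sex or age. The mouse and rat sample titles also carry different codes, which no label explains.

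Other T, B and recruitment genes were counted beside the members. Over all symbols, 4.03% were called higher and 0.984% lower in KO mice, and 21.1% and 22.3% in KO rats over both ranges. Of 30 further T and NK cell genes, 0 of 30 passed limma in mice (7 with an unadjusted p under 0.05, and 1 of 26 higher in edgeR on reads, DESeq2 calling 1 higher and 1 lower) and 16 of 24 tested were higher in KO rats. Of 20 further B and plasma cell genes, 2 of 20 were higher in KO mice and 6 of 15 in KO rats. Of the 15 rat estimates 8 were positive and 7 negative, with a median of 0.02 against -0.02 over all symbols. BACH2 was lower in KO rats 25 to 32. Of 20 genes for lymphocyte recruitment, 7 were higher and 1 lower in KO mice, and 14 of 18 were higher in KO rats. Among those past the threshold in both species were the chemokine CXCL10 (1.15 ± 0.14 in mice and 1.41 ± 0.12 in rats), which draws activated T cells, the adhesion molecule VCAM1 (1.40 ± 0.11 and 0.57 ± 0.06), its relative ICAM1 (0.46 ± 0.09 and 0.58 ± 0.06), and the chemokine CXCL16 (0.45 ± 0.08 and 0.25 ± 0.04) and its receptor CXCR6 (0.51 ± 0.10 and 0.94 ± 0.18). CXCL12 was lower in KO mice (-0.63 ± 0.15) and higher in KO rats (0.25 ± 0.05). CXCL10, VCAM1 and CXCL16 are also made by cells that are no lymphocytes.

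Genes of other cells moved in the same comparisons, where 4.03% of all symbols were called higher and 0.984% lower in KO mice. In KO rats these shares were 21.1% and 22.3% over both ranges, and 4.94% and 1.86% in rats 17 to 24. Of 12 macrophage and monocyte markers, 9 were higher in KO mice and 10 of 11 tested in KO rats, 5 of 11 in rats 17 to 24. Their sum was 153 to 159 CPM in WT and 224 to 265 CPM in KO mice, 155 to 205 and 243 to 265 CPM in rats 17 to 24, and 221 to 283 and 451 to 642 CPM in rats 25 to 32. Of 6 all-leukocyte markers, 4 were higher in KO mice and 5 in KO rats, with sums of 98.7 to 103 and 117 to 132 CPM in mice, 87.1 to 113 and 150 to 180 CPM in rats 17 to 24, and 121 to 140 and 238 to 295 CPM in rats 25 to 32. Proximal tubule markers went the other way, with 5 of 7 lower in KO rats and 1 of 8 in KO mice. Their sum was 10519 to 12588 CPM in WT and 8778 to 9426 CPM in KO rats 17 to 24, and 13536 to 15187 and 7018 to 8427 CPM in rats 25 to 32. No defining marker of these lists was at 0 in every animal, and the part that these shifts have in the lymphocyte values was not tested. The 6 neutrophil markers summed to 0.95 to 3.15 CPM in all rats and 1.54 to 2.48 CPM in mice. Blood and platelet genes summed to 4.55 to 12.6 CPM in mice and 32.1 to 277 CPM in rats. Mast cell genes summed to 20.7 to 44.5 CPM over both species. Perirenal fat genes reached 21 CPM in KO and 18.9 CPM in WT mice from a lowest sum of 0.26 CPM, and 11.4 to 25.5 CPM in rats. Of the collecting duct and distal nephron genes, 3 of 6 were higher in KO rats and in mice 1 of 8 had an unadjusted p under 0.05 in limma without passing the threshold, edgeR on reads calling 0 and DESeq2 1.

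**Figure D4:**
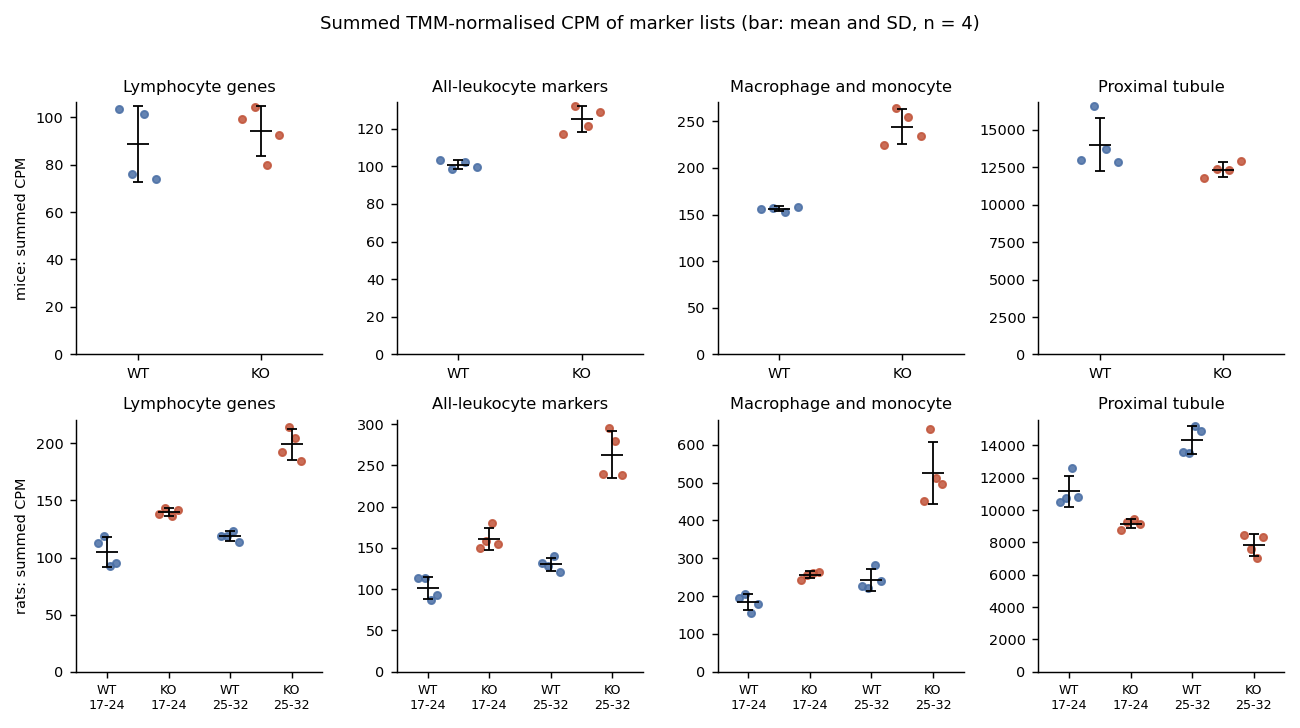
Summed TMM-normalised CPM (y axis) of the lymphocyte genes and of 3 marker lists in each mouse (top) and rat (bottom) by genotype and number range, with points for animals and bars for mean and SD (n = 4). In rats 25 to 32 the lymphocyte sum is 185 to 215 CPM in KO against 114 to 124 CPM in WT, beside macrophage sums of 451 to 642 against 221 to 283 CPM and proximal tubule sums of 7018 to 8427 against 13536 to 15187 CPM. Much of the lymphocyte sum comes from CD4, ITGAL, GATA3 and IL2RG in rats, which other cells also carry, and from GATA3 and JCHAIN in mice.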

How the data were processed

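RNA from kidneys of 8 mice and 16 rats was sequenced by the authors as stranded mRNA libraries with paired reads, 1 library per animal. The submitters' processing notes name bcl2fastq 2.20, STAR 2.7.3, DESeq2 1.24.0, R 3.6.1 and the builds rn5 and mm10, without saying which step each served. The counting tool and annotation are not given in the sources used here. For the mouse the authors deposited a normalised signal per symbol, which the values show to be reads plus 0.5 over the library's 75th percentile plus 0.5. Reads recovered from it were whole, within 0.01, for 99.0% of values. The rat table that the authors deposited holds an estimated count per symbol, which the values show to be reads plus 1/6 without scaling. They were whole for 97.7% of values once 1/6 was removed, and were rounded.

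Mouse changes were tested with limma 3.58.1 (trend, robust) on log2(signal + 0.01) without a filter. Rat changes were tested with edgeR 4.0.16 (quasi-likelihood, robust, TMM) in 1 model of 4 groups, genotype by number range, over symbols with a mean of at least 5 reads, and SE is the log2 change over the square root of F. Species were compared with limma on both tables in the mouse scale. P-values were adjusted by Benjamini-Hochberg over all symbols tested, threshold 0.05, in R 4.3.3. Levels are CPM with TMM factors. Each test was tested on simulated data, with 200 genes at the read level of the members changed 2-fold. The mouse test recovered 8.5% of them and edgeR on mouse reads 11%. The rat test recovered 95.5% for the mean of both ranges, 71% in rats 17 to 24 and 73.5% in rats 25 to 32. It recovered 23% for the difference between ranges, and the species test recovered 54.5%. A low count in mice or between ranges therefore does not show that changes were absent. Each pair of libraries within a group differed beyond counting error, with a chi-square of at least 12.7 times its degrees of freedom in 12 pairs of mice and 8.85 times in 24 pairs of rats. Whether animals shared litters or days is not stated, so p-values measure the spread between these animals.

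The members, role groups and marker lists were chosen with earlier results of these data known. Values in every animal were given for members past the threshold in both species (there were 0), the 5 with the largest change among those called in 1 species, and 13 listed markers whatever their result. KLRD1, CD28 and IL2RA were added after their values were seen, and changes of further members are quoted as examples of their groups. Pathway genes were named where past the threshold in both species, except 1 that is not reported here. Alternatives were other pseudocounts, filters, normalisations and tests (DESeq2 1.42.0, limma-voom), other models and leaving out each animal. Use of library totals alone was chosen after seeing the data. Motif counts come from RefSeq promoters on GRCr8. Protein sequences were not used here. Libraries held 19309371 to 44449845 reads, and intervals of single animals were not given since PCR copies are not independent molecules.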

Additional observations from a re-analysis of the deposited data

Results flagged for a closer look

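In 106 groups of 4 animals of the named members, 5 held 1 animal far from the other 3 (Dixon's test), and chance flags about 1 in 20 groups. KLRD1 was 0.553 CPM in WT mouse 1 against 0.338 to 0.374 in the other WT mice. CD3G was 1.58 CPM in KO rat 22 against 0.802 to 0.862 in the other KO rats 17 to 24, and LCK was 5.46 CPM in KO rat 20 against 4.19 to 4.31. CD4 was 34.1 CPM in KO rat 32 against 41.5 to 41.7 in the other KO rats 25 to 32. MS4A1 was 0.0372 CPM in WT rat 25 against 0.0743 to 0.0777, which rests on 1 to 3 reads.

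The KO change differed between the rat number ranges by an interaction term in edgeR for CD28 (-1.36 on the log2 scale, rats 25 to 32 minus rats 17 to 24), LCK (0.59) and IL2RA (1.0). The CD28 call held in all 16 fits that left out 1 rat, and the LCK and IL2RA calls held in 6 each. The KO change was greater in rats than in mice by the limma interaction term for IL2RA (1.10), CD22 (0.91), CD3E (0.88), POU2AF1 (0.87), BLK (0.82), CD2 (0.81), GZMA (0.79), CD3G (0.78), ZAP70 (0.62), LCK (0.57), FOXP3 (0.54) and IL2RG (0.39), on the log2 scale with 0.01 added. In the fits that left out 1 of the 8 mice, the calls of IL2RA, CD3E and FOXP3 held in all 8. That of LCK held in 5, of BLK in 4 and of GZMA in 2. No rat was left out in these fits, so they do not probe the rat values behind the calls. With limma-voom on reads the calls of FOXP3, BLK, LCK and GZMA were lost (adjusted p = 0.0594, 0.063, 0.0794 and 0.0813). FOXP3 had 0 to 4 reads in WT rats.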

How the results depend on the processing

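No paired analysis was possible because the animal numbers are not shared between WT and KO groups. The count of members called in the mouse, 1, became 0 with a minimum mean value of 0.02, with edgeR and with DESeq2 on reads, and ranged from 0 to 3 without 1 mouse. The species difference, 12 members, became 20 with a pseudocount of 1 and 4 with limma-voom, and ranged from 4 to 12 without 1 mouse. The difference between rat ranges, 3 members, became 5 with DESeq2, 1 with limma-voom and 8 with library totals alone, and ranged from 1 to 6 without 1 rat. CD28 was the 1 member called by limma-voom. The count in rats 17 to 24, 13, became 8 when they were fitted alone and ranged from 6 to 15 without 1 rat. The count over both ranges (30) ranged from 29 to 31 without 1 rat, that of rats 25 to 32 (30) from 25 to 30 and that of WT rats between ranges (7) from 6 to 8, and these 3 stayed within 1.5 times under each alternative run. No named member changed sign while called. With library totals alone, 75.6% of all called symbols were higher over both ranges against 48.7%, 76.7% against 47.5% in rats 25 to 32, 22.3% against 55.4% between WT rats, and 87% against 47.8% for the difference between ranges. The median of all symbols then lay at 0.155 in rats 25 to 32, under the median member change of 1.05, at 0.14 for the difference between ranges and at -0.121 between WT rats, and 2297 symbols were called greater and 344 lower for the difference between ranges against 830 and 905. With genotype alone, 1833 symbols were higher and 1475 lower, against 2545 and 2684. In the mouse, 701 symbols were higher and 171 lower, against 937 and 584 with DESeq2 on reads. The mouse results rest on few reads, and 12 rat members stayed under the read minimum.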
